A study of Mus musculus with 132 samples.

Results

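Collagen genes other than those of cartilage were followed in cortical bone of the mouse tibia. They were chosen by name, as every gene symbol of the form Col, number, a, number, with Col2a1, Col9a1, Col9a2, Col9a3 and Col10a1 left out, which gave 39 of 23385 gene symbols. Of the 39, 30 reached 10 in 4 or more libraries and were tested with 13031 genes in all. The other 9, Col4a3, Col6a4, Col6a6, Col7a1, Col17a1, Col19a1, Col20a1, Col26a1 and Col28a1, were too low to test. Libraries of the 3′ ends of messenger RNA were made from 22 female C57Bl/6J mice aged 10 weeks. In each mouse the left tibia was compressed 1200 times a day, at 4 Hz and with peaks of 9 N, and the right tibia of the same mouse, not loaded, was the control. The cortex, freed of cancellous bone, was divided into a metaphyseal shell near the knee, proximal diaphysis and mid-diaphysis, so that each mouse gave 6 libraries. After 1 bout of loading, 5 mice were taken at 1 h, 4 at 3 h and 4 at 24 h. A longer course of 7 daily bouts, ending 24 h before tissue was taken, was given to 4 mice (7d). The 5 mice called 5d had 5 days of loading and were killed on day 8. All groups are of 1 sex, strain and age, and the control is the other limb of a loaded animal, not a limb of an animal that was never loaded.

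Collagens are built from 3 chains wound into a triple helix. Fibrillar collagens form the fibres that carry mineral in bone, with type I as the main component and types III, V and XI assembled into or with its fibres. Network collagens such as types IV and VIII form sheets, of which the basement membrane is one, and type VI forms beaded filaments around cells. Collagens with interrupted helices (FACIT) sit on the surface of fibres, multiplexins anchor basement membranes to the tissue beneath, and a few members span the cell membrane. In bone, osteoblasts make most of the type I collagen, while the periosteum, tendon insertions and vessels carry much of the others.

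The libraries held 290066 to 5404930 gene-assigned reads (median 1696820). Collagens of the set took at least 0.650% of these reads and a median of 10.7%, and type I took a median of 91.5% of the collagen reads. Values are the deposited normalised read counts, and differences are log2 values within a mouse after a pseudocount of 1. A few libraries, chosen after seeing the data, are left out in some of the comparisons. In 4 mid-diaphysis libraries (loaded in mouse 2 and control in mouse 3 at 1 h, loaded in mice 4 and 5 at 5d) Msln, a mesothelial gene, was above 100, a level that set them apart. In 3 controls few genes were seen or Col1a1 took a large share of the reads. Those of proximal diaphysis of 3 h mouse 3 and 7d mouse 2 held reads in 7915 and 8296 genes, and that of mid-diaphysis of 7d mouse 4 in 9720, where the richest library had 15089, and Col1a1 took 11.4%, 36.5% and 28.9% of their reads. In the number of genes the last of them does not stand apart, since other libraries of mid-diaphysis that were kept had 9730, 9764 and 9805. The cartilage genes of the control tibia were set against the segment labels. Col10a1, made by hypertrophic chondrocytes, was higher in the shell than at mid-diaphysis in 19 of 22 mice, and Mia, another cartilage gene, in 21 of 22. In mouse 2 at 3 h Col10a1 was at 1.31 in the shell, 38.3 at proximal diaphysis and 540.3 at mid-diaphysis, and Mia went the same way, with 0, 8.97 and 87.7. The loaded tibia of that mouse went against the labels in another order. There Col10a1 was at 0 in the shell, 506 at proximal diaphysis and 205 at mid-diaphysis, and Mia at 1.32, 87.45 and 33.9. In the control tibia of the other 21 mice Col10a1 was at 9.77 to 962.6 in the shell (median 121.2) and 0 to 30.4 in mid-diaphysis (median 2.51). The other 2 mice in which the shell was not the higher were mouse 4 at 24 h, with 9.77 in the shell and 20.4 at mid-diaphysis, and mouse 1 at 5d, with 14.3 and 18.1. The differences between segments that passed or nearly passed are given with and without these libraries where the call depends on them. The loading comparisons by segment at 3 h, and the test between segments at that time, keep mouse 2 under its labels. In that mouse the loaded and control libraries of 1 label differ in cartilage genes, as given above.

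Among the control tibiae, the fibrillar collagens were the most abundant class in reads of 3′ ends, and all 10 were tested. Col1a1, which encodes the α1 chain of type I, ranged from 45245 to 181901 in the shell (median 74049), from 29645 to 861775 in proximal diaphysis (median 99130) and from 4528 to 634590 in mid-diaphysis (median 84119). The segments overlapped throughout, and the spread between mice was narrowest in the shell. Col5a2, a chain of the type V collagen that is built into type I fibres, had medians of 1218 in the shell (932 to 3619), 2858 in proximal diaphysis (747 to 10351) and 2091 in mid-diaphysis (156 to 8511). Col3a1, the chain of type III collagen, which is typical of loose and fibrous connective tissue, had medians of 517 (58.1 to 2112), 1193 (181 to 8355) and 381 (8.45 to 3939) in the same order. Both had their highest median in proximal diaphysis, Col5a2 its lowest in the shell and Col3a1 its lowest in mid-diaphysis.

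In each of the other classes 1 member led. Col8a1, a chain of the short network collagen type VIII, led the network and basement membrane class (7 of 8 members tested), with medians of 387 in the shell (221 to 986), 351 in proximal diaphysis (206 to 932) and 217 in mid-diaphysis (22.7 to 543). Col6a3, the longest chain of type VI, led its class (4 of 6 tested), with medians of 503, 620 and 275 and ranges of 212 to 898, 194 to 1707 and 27.5 to 791. Col22a1, a FACIT described at tissue junctions, led that class (4 of 6 tested) at medians of 434, 535 and 597. Its ranges were 247 to 659, 135 to 957 and 8.84 to 1176. Col15a1, a multiplexin, had medians of 98.5 (43.1 to 240.5), 173 (46.6 to 645) and 145 (10.1 to 655), and both multiplexins were tested. Col13a1 led the transmembrane class (3 of 4 tested) with medians of 126 (39.5 to 302), 128 (43.1 to 451) and 100.1 (8.20 to 452). None of the 3 members left, Col7a1 of anchoring fibrils, Col26a1 and Col28a1, was tested, and Col17a1 of epithelial attachment was read in 7 libraries of all segments, limbs and times. In every one of these leading members the lowest library of mid-diaphysis lay under the lowest of either other segment. These lowest values all came from mice 3 and 5 of 1 h. For Col8a1, Col22a1 and Col15a1 it was the library of mouse 5, in which collagens took 0.650% of the reads. For Col6a3 and Col13a1 it was that of mouse 3, with high Msln. The library of mouse 5 was not among those left out.

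**Figure D1:**
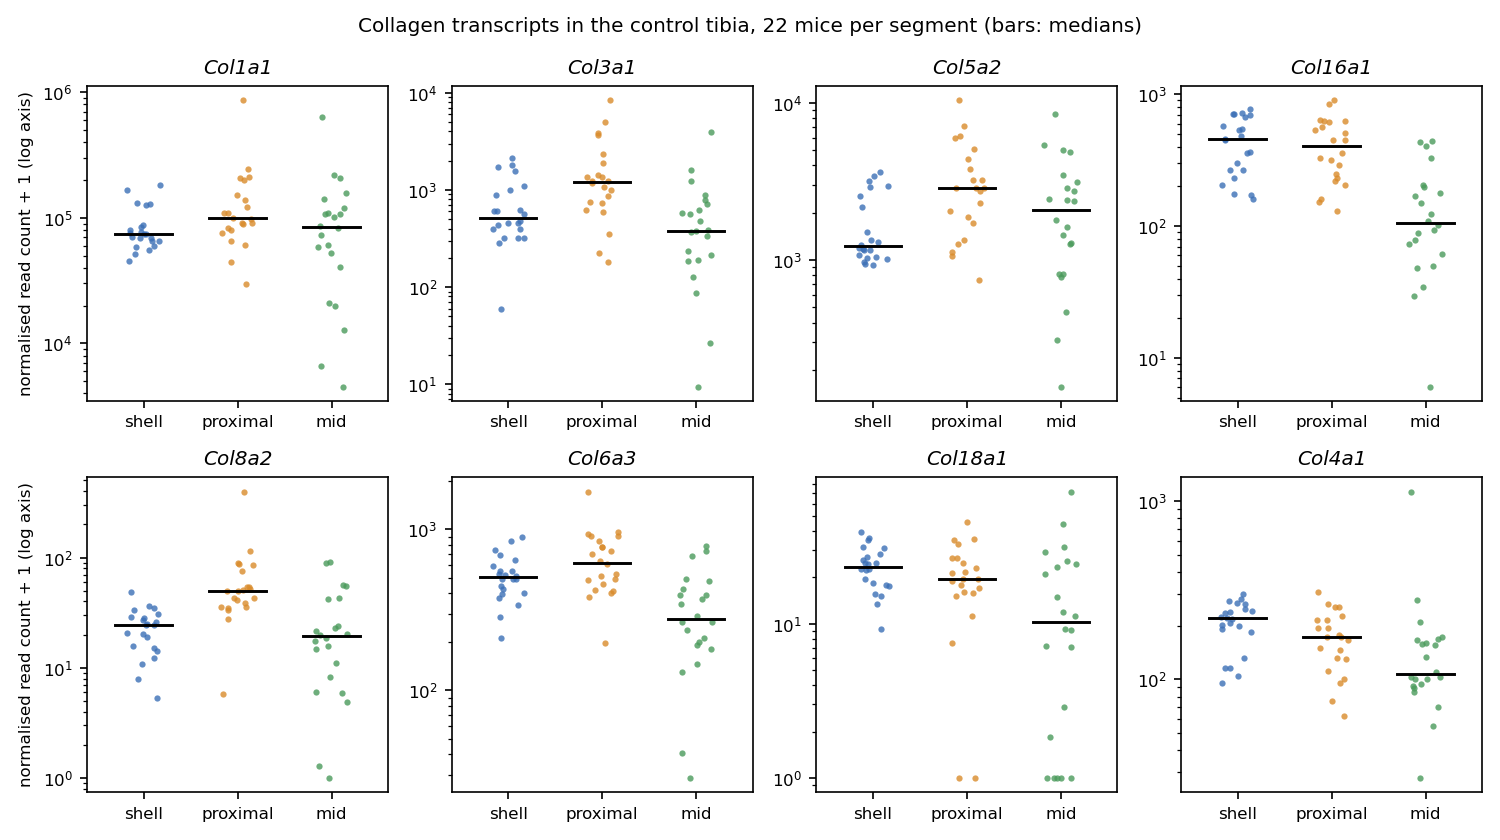
Normalised read count + 1 (log axis) of 8 collagen genes in the control tibia, 1 point per mouse, with bars at the medians of 22 mice per segment. Col16a1 lies lower in mid-diaphysis (median 104.6) than in the shell (median 455), and Col3a1 and Col8a2 have their highest median in proximal diaphysis.

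The first comparison asked how collagen transcripts differ along the unloaded cortex. Between shell and mid-diaphysis, 6 of the 30 members were higher in the shell and 0 lower (limma, Benjamini-Hochberg adjusted p under 0.05, n = 22 mice), where 7.37% of all genes tested passed in either direction with 6.63% higher and 0.737% lower. The median difference of the 30 members was 0.38 on the log2 scale, and that of all genes was 0.17. The 6 came from every tested class but the transmembrane one. In bulk tissue, fewer cells of a type and less RNA per cell cannot be told apart. Mice are separate animals, and each p-value tests a mean difference within mice against 0, given the spread between mice.

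Col16a1, a FACIT of fibrous tissue and cell surfaces (chromosome 4, 130047840 to 130099283, plus strand, mm10), differed most. It was at 161 to 773 in the shell (median 455), at 130 to 900 in proximal diaphysis (median 403) and at 5.05 to 440 in mid-diaphysis (median 104.6). The shell exceeded mid-diaphysis in 22 of 22 mice, by 1.92 ± 0.22 (SE, adjusted p = 3.38e-06 by limma), and by 2.78, 1.71, 0.90, 2.51 and 1.34 within the mice of 1 h, 3 h, 24 h, 5d and 7d. The proximal diaphysis exceeded mid-diaphysis by 1.83 ± 0.24 in 21 of 22 mice (adjusted p = 6.77e-05). Shell and proximal diaphysis did not differ past the threshold, and the 95% interval of their difference ran from -0.11 to 0.30. Its call held under every alternative tried, each omission of a mouse included, in both comparisons with mid-diaphysis.

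The other 5 members higher in the shell than in mid-diaphysis differed by less or varied more. Col8a1 was higher by 1.04 ± 0.18 (21 of 22 mice, adjusted p = 0.000486 by limma). Col27a1, a fibrillar collagen expressed in cartilage, was at medians of 139 (65.1 to 309) and 80.8 (11.1 to 147), a difference of 0.88 ± 0.20 (19 of 22, adjusted p = 0.00592). Col18a1, the multiplexin that holds the endostatin sequence and lies in vessel basement membranes, was at medians of 22.5 (8.19 to 38.4) and 9.26 (0 to 70.7), a difference of 1.53 ± 0.37 (17 of 22, adjusted p = 0.00966), and it missed the threshold in edgeR (adjusted p = 0.0852). The segments overlapped in these genes, with the highest values of Col18a1 in single libraries of mid-diaphysis. Col6a3 was higher by 0.93 ± 0.23 (19 of 22, adjusted p = 0.0111) and Col6a2, another type VI chain, by 1.09 ± 0.27 (18 of 22, adjusted p = 0.0117), the latter from medians of 228 (91.7 to 427) and 111.4 (3.59 to 521). Within the mice of 24 h, Col6a3 differed by -0.07, and it was the only one of the 6 whose mean difference turned sign at a time.

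The type IV chains of the common basement membrane came close to the threshold. Col4a1 was at 94.2 to 299 in the shell (median 219), at 60.8 to 308 in proximal diaphysis (median 172) and at 26.9 to 1126 in mid-diaphysis (median 105.4). Its difference between shell and mid-diaphysis was 0.66 ± 0.22 (20 of 22 mice, adjusted p = 0.0574 by limma), and that of Col4a2 was 0.66 ± 0.21 (19 of 22, adjusted p = 0.052). The highest mid-diaphysis value of Col4a1 was that of the control library of mouse 3 at 1 h, 1 of the 4 libraries that stood apart. Without the 4 libraries both chains passed, with adjusted p = 0.000937 for Col4a1 and 0.00233 for Col4a2, and 9 members were higher, Col6a1 being the third added. Of the 4, only that of mouse 3 at 1 h is a control library, so this is the same fit as leaving out that mouse. Without mouse 2 at 3 h, in which both cartilage genes go against the segment labels, 7 were higher, with Col4a2 added at adjusted p = 0.0348.

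Between shell and proximal diaphysis the direction was the opposite. 0 members were higher in the shell and 5 lower, where 6.45% of all genes passed in either direction, 4.58% higher and 1.87% lower. The median of the 30 members was -0.26, whereas the median of all genes was 0.17. Of the 5, Col3a1, Col5a2 and Col24a1 are fibrillar, Col8a2 is of the network class and Col15a1 is a multiplexin.

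Col3a1 was lower in the shell in 20 of 22 mice, by a log2 difference of -1.04 ± 0.18 (adjusted p = 0.000778 by limma), and by -0.88, -1.04, -1.29, -0.97 and -1.07 in the mice of the 5 times in order. Col5a2 differed by -0.83 ± 0.14 (lower in 19 of 22, adjusted p = 0.000998). Col8a2, the partner chain of Col8a1 in type VIII collagen, was at medians of 23.4 in the shell (4.37 to 47.9), 48.6 in proximal diaphysis (4.78 to 393.5) and 18.3 in mid-diaphysis (0 to 89.8). It differed by -1.29 ± 0.25 between shell and proximal diaphysis (lower in 21 of 22, adjusted p = 0.0024). All 3 genes had overlapping ranges, and proximal diaphysis held the highest library in each. Col15a1 differed by -0.71 ± 0.19 (lower in 18 of 22, adjusted p = 0.0225). Col24a1, a minor fibrillar collagen of bone, differed by -0.47 ± 0.14 (lower in 17 of 22, adjusted p = 0.0446), and its call held in 7 of 22 fits that each left out a mouse. Col8a1 and Col8a2, though chains of 1 collagen type, thus passed in different comparisons, Col8a1 with a difference of 0.15 ± 0.14 here.

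A type I chain and 2 of the 4 tested FACITs lay just outside the threshold in this comparison. Col1a1 differed by -0.48 ± 0.15 (adjusted p = 0.0526 by limma), Col12a1, a FACIT of tendon and periosteum, by -0.48 ± 0.15 (adjusted p = 0.0516), and Col22a1 by -0.33 ± 0.10 (adjusted p = 0.0516). The other type I chain, Col1a2, was at -0.29 ± 0.18 (lower in 16 of 22, adjusted p = 0.333), and the FACIT Col14a1 at -0.26 ± 0.26 (adjusted p = 0.563). Without mouse 2 at 3 h Col1a1, Col12a1 and Col22a1 passed, at adjusted p = 0.0308, 0.0306 and 0.02, so that 8 members were lower in the shell. Leaving out mouse 3 at 5d also gave 8. Without the 7 libraries named at the start the count was 8 as well, 7 lower and Col4a2 higher. In a joint fit to all libraries with the mouse as a block 0 members passed (adjusted p = 0.132 for Col3a1, 0.0576 for Col5a2, 0.057 for Col8a2 and 0.104 for Col15a1 by limma), and without the pairing by mouse Col8a2 alone did (adjusted p = 0.00733).

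Between proximal diaphysis and mid-diaphysis few genes passed at all, 0.207% of those tested and all of them higher in proximal diaphysis, and 4 of the 30 collagens were among them. The median of the members was 0.59, and that of all genes was 0.01. Beside Col16a1 these were Col3a1 at 1.81 ± 0.32 (higher in 18 of 22 mice, adjusted p = 0.00467 by limma), Col6a3 at 1.24 ± 0.25 (19 of 22, adjusted p = 0.0207) and Col8a2 at 1.66 ± 0.36 (17 of 22, adjusted p = 0.0356). Within the mice of 24 h the mean difference of Col3a1 was -0.08, against 1.00 to 2.84 at the other times. Col8a1 missed the threshold at 0.89 ± 0.21 (19 of 22, adjusted p = 0.0602).

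The calls between proximal and mid-diaphysis changed when libraries were left out. Without the 4 libraries, Col16a1 and Col3a1 passed (adjusted p = 0.000572 and 0.0152 by limma), Col6a3 was at 0.0533 and Col8a2 at 0.0661. Here too this is the fit without mouse 3 at 1 h, whose library is the only control of the 4. Without the 7 libraries Col16a1 and Col6a2 passed (adjusted p = 0.00166 and 0.0187), with Col3a1 at 0.0514. Without mouse 2 at 3 h Col8a2 was at 0.0569 and the other 3 passed. Leaving out mouse 3 at 3 h, whose proximal library held few genes, gave 6. By edgeR 2 members passed, and with no filter on low values 1 did. The call of Col8a2 held in 9 of 22 such fits.

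**Figure D2:**
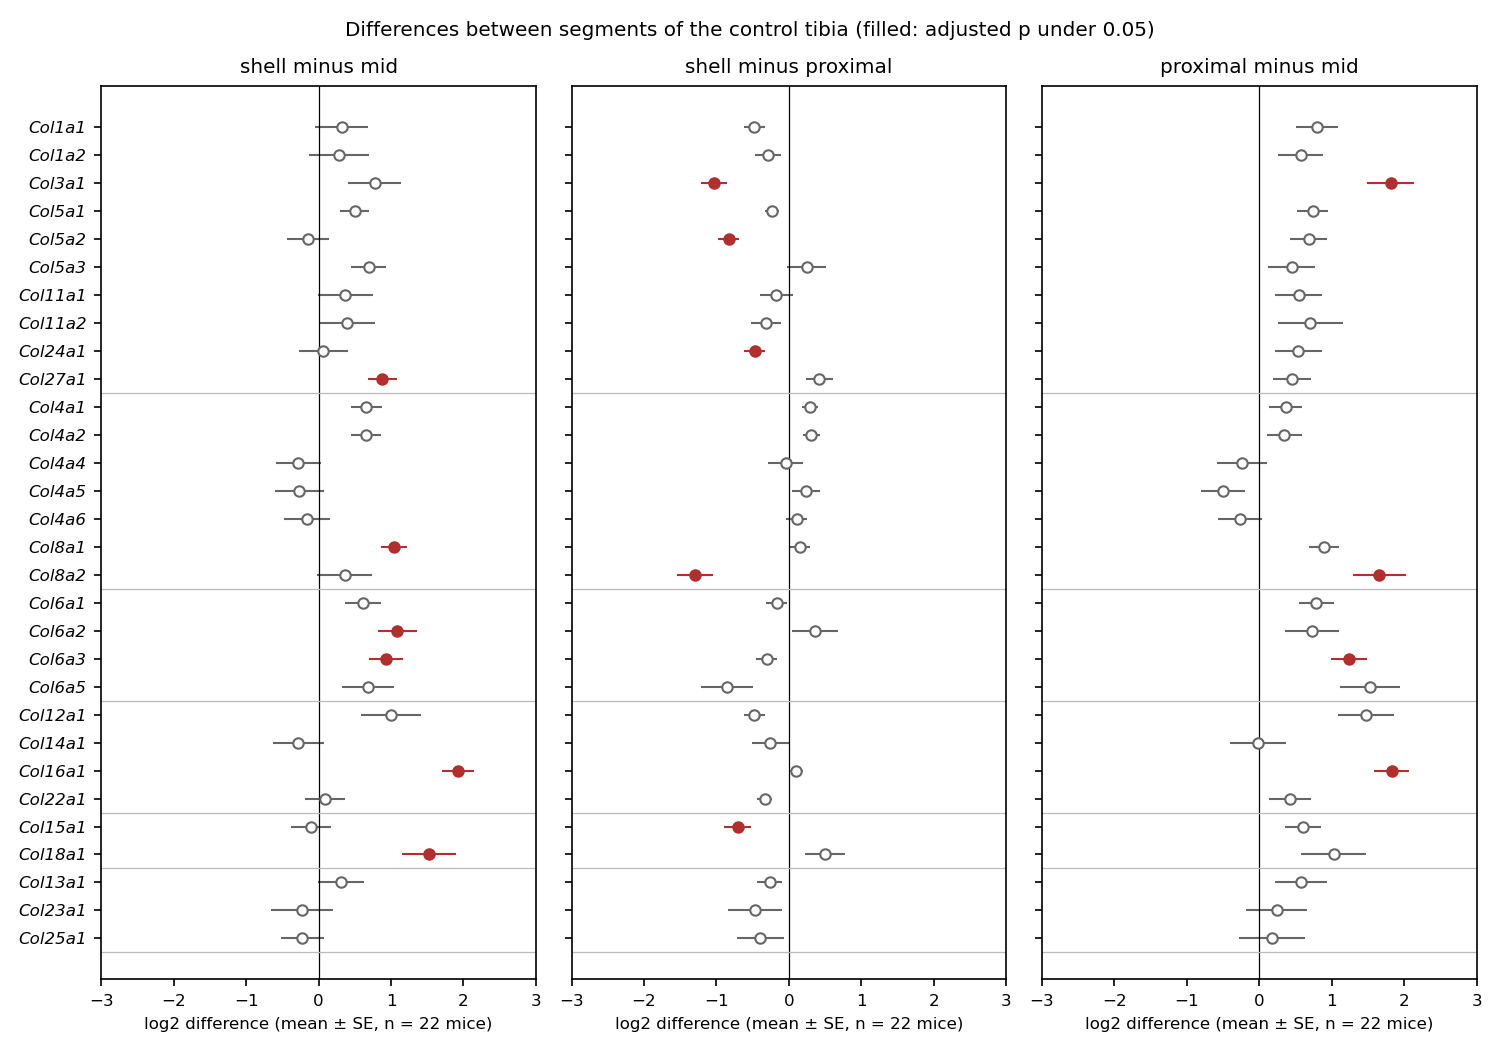
Mean log2 difference ± SE over 22 mice between 2 segments of the control tibia for the 30 tested members, with a row per gene grouped by class and filled points at adjusted p under 0.05. Shell minus mid has 6 filled points, all above 0, shell minus proximal has 5, all below 0, and proximal minus mid has 4, all above 0.

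Col16a1 and Col3a1 were both higher in proximal diaphysis than in mid-diaphysis, while only Col3a1 of the pair was lower in the shell than in proximal diaphysis by the test. Their promoters are shown because they are the members with the smallest p in those comparisons for which RefSeq gives an entry. Each sequence runs 5′ to 3′ from 250 bases before the RefSeq start of the gene to 50 after it, on build GRCm38.p6. Capitals mark 3 promoter motifs, each searched on both strands and none overlapping another in these windows. The first is the TATA element, spelled TATAAA. The second, called the CAAT motif, is spelled CCAAT. The last, known as the GC box, is spelled GGGCGG. Col3a1 lies at chr1:45311288-45311587 on the plus strand and Col16a1 at chr4:130047590-130047889 on the plus strand.
Col3a1: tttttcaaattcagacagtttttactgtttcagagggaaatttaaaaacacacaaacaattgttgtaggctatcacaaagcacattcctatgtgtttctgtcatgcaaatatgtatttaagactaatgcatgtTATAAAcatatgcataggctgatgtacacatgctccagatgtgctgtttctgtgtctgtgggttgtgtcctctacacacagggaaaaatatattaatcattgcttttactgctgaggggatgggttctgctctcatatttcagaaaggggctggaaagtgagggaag
Col16a1: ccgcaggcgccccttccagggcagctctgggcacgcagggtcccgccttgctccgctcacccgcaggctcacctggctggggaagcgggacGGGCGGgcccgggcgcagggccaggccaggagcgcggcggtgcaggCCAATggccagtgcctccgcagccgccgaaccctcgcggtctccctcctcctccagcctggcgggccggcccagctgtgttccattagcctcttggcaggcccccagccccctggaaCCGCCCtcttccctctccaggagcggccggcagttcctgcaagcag
The Col3a1 window holds a TATA element at -117 from the start and neither of the other motifs. The Col16a1 window holds no TATA element, a CAAT motif at -113, and GC boxes at -159 and, on the minus strand, at 5. Of 32851 mouse promoters 13.6% held the TATA element, 37.4% the CAAT motif and 35.7% a GC box, and of 34 promoter entries of 32 collagens of the set 4, 12 and 22 held them. A match is a run of letters and does not show that a factor binds there.

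Cell type markers moved with the segments. Of all genes, 6.63% were higher in the shell than mid-diaphysis, 4.58% higher and 1.87% lower than proximal diaphysis, and 0.207% differed between proximal and mid-diaphysis. In the shell, 6 of 6 chondrocyte markers were higher than in mid-diaphysis and 6 of 6 higher than in proximal diaphysis, and 4 of 6 endothelial, 3 of 4 marrow fat and 4 of 4 platelet markers were higher than in mid-diaphysis (limma, adjusted p under 0.05). Osteocyte genes are given by median in shell, proximal and mid-diaphysis. Sost was at 98.6, 246 and 486, Dmp1 at 95.8, 175 and 130, and Mepe at 146, 283 and 245. Phex was at 452, 428 and 454, and Fgf23 at 0 in each. Among the osteoblast genes, Bglap, Alpl, Sp7, Runx2 and Spp1 had their highest median in proximal diaphysis and Ibsp in mid-diaphysis. Tests of these lists are not given here. Of 9 genes of periosteum, tendon and fibroblasts, 4 were lower in the shell than in proximal diaphysis, among them Thbs4 at -1.89, Aspn at -1.54, Postn at -1.13 and Scx at -0.82, and 3 were higher in the proximal than in mid-diaphysis, Aspn at 2.90, Fmod at 2.54 and Postn at 1.44. The summed level of these 9 genes was 244 to 1148 in the shell (median 543), 271 to 2715 in proximal diaphysis (median 1211) and 60.4 to 3220 in mid-diaphysis (median 392). Its order by medians is that of Col3a1. The libraries of the segments also differed as a whole. In the control tibia, Rn45s, the ribosomal RNA precursor, took a mean of 4.87% of the reads in the shell, 11.1% in proximal diaphysis and 21.5% in mid-diaphysis, and reads fell in a mean of 14128, 12633 and 12153 genes. The part of these cells and of these library measures in the collagen differences was not tested.

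Genes that make, process and bind collagen were compared in the same way, first between shell and proximal diaphysis, where 1.87% of all genes were lower in the shell. Of 17 tested genes of chain hydroxylation and folding, 4 were lower in the shell than in proximal diaphysis. They were Serpinh1, the collagen chaperone HSP47, at -0.66 ± 0.14 (adjusted p = 0.00711 by limma), the prolyl 4-hydroxylase subunits P4ha1 at -0.49 and P4ha2 at -0.54, and Sec23a, a coat protein of secretory vesicles, at -0.54. Of 13 genes of propeptide processing and crosslinking, 2 were lower there, the lysyl oxidase Loxl2 at -0.98 ± 0.22 (adjusted p = 0.0101) and Adamts2, which removes the N-propeptide, at -0.70. Of 11 receptors, 2 were lower, Itga11, the integrin subunit that binds fibrillar collagen, at -0.56 and Mrc2, which takes up collagen fragments, at -0.81. Between proximal and mid-diaphysis 0 genes of these 3 lists, and 0 of the degradation and basement membrane partner lists, passed by limma. At an unadjusted p under 0.05, 6 of 17, 5 of 13, 2 of 11, 9 of 13 and 1 of 15 genes of the 5 lists were higher in proximal diaphysis, where 5.68% of all genes were.

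Of 13 degradation genes 6 were higher in the shell than mid-diaphysis, beside 6.63% of all genes. Mmp15 was higher by 1.44, Mmp13, the collagenase of osteoblasts and hypertrophic chondrocytes, by 1.06 ± 0.24 (adjusted p = 0.00538 by limma), Mmp9, the gelatinase of osteoclasts, by 1.04 and the inhibitor Timp2 by 0.82. Between shell and proximal diaphysis 3 of the 13 were lower in the shell, Mmp2 at -0.59, Timp3 at -0.48 and Fap at -0.43, and 2 were higher, Mmp8 at 0.51 and Mmp9 at 0.47, beside 1.87% and 4.58% of all genes. Of 15 partners of basement membranes 3 were higher in the shell than in mid-diaphysis, the laminin chains Lama1 at 1.25 and Lamb1 at 0.70 and the proteoglycan Agrn at 0.53. In the same comparison Gp6, the collagen receptor of platelets, was higher by 1.58, the lysyl hydroxylase Plod1 by 0.62 and the lysyl oxidase Loxl1 by 0.67, each the only member of its list to pass.

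Ratios between chains within a library depend little on the scaling of libraries. For 8 ratios and 3 pairs of segments, 24 tests by a permutation of signs with 100000 resamples (two-sided, 22 mice) gave 0 adjusted p under 0.05, and the smallest was 0.116. The ratio of Col3a1 to Col1a1 averaged -7.13 ± 0.96 on the log2 scale in the shell and -6.57 ± 0.92 in proximal diaphysis (SD), a difference of -0.56 ± 0.19 (SE, lower in 18 of 22 mice, permutation p = 0.00635, adjusted 0.116). The ratio of Col5a2 to Col1a1 differed by -0.35 ± 0.12 between the same segments (permutation p = 0.0104, adjusted 0.116). Between proximal and mid-diaphysis the ratio of Col3a1 to Col1a1 differed by 1.02 ± 0.37 (higher in 16 of 22 mice, permutation p = 0.0145, adjusted 0.116). Without mouse 2 at 3 h both passed, at -0.64 (adjusted p = 0.0314) and -0.41 (adjusted p = 0.0338) by the permutation test, and without mouse 1 at 1 h that of Col3a1 passed at -0.64 (adjusted p = 0.0403). With the labels as deposited, a difference in these ratios was not detected.

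Col4a2 and Col4a1, whose products join in 1 trimer, had the mean ratio that varied least over segments among the 8. It was -0.83 ± 0.35 in the shell, -0.85 ± 0.54 in proximal diaphysis and -0.83 ± 0.49 in mid-diaphysis (SD, n = 22), and the differences were -0.003 ± 0.12, 0.01 ± 0.13 and -0.02 ± 0.14 (SE). On mm10 the pair lies head to head on chromosome 8, where Col4a1 begins at 11312826 on the minus strand and Col4a2 starts at 11312805 on the plus strand, so that the genes share 22 bases. Their promoter windows share 78 bases, from 11312777 to 11312854, and the Col4a2 window is shown because it holds that stretch at its end.
Col4a2: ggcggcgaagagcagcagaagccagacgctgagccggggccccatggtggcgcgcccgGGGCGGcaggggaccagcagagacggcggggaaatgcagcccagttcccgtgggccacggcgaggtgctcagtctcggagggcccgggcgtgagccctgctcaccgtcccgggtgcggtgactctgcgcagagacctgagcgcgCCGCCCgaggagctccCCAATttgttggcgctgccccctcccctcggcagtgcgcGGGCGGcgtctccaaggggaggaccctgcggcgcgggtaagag
This window is chr8:11312555-11312854 on the plus strand of GRCm38.p6, with capitals as above. It holds a CAAT motif at -32, GC boxes at -192 and 8, and a GC box on the minus strand at -48. Other neighbours in the set are Col4a4 and Col4a3, 71 bases apart head to head, Col4a6 and Col4a5, 1308 bases apart head to head, and Col3a1 and Col5a2, 24614 bases apart tail to tail. Whether the authors' counting used strand is not given in the sources used here, so reads in the shared bases cannot be assigned to a strand. The shared bases lie at the starts of Col4a1 and Col4a2, which span 114404 and 136483 bases, whereas the libraries are of 3′ ends.

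**Figure D3:**
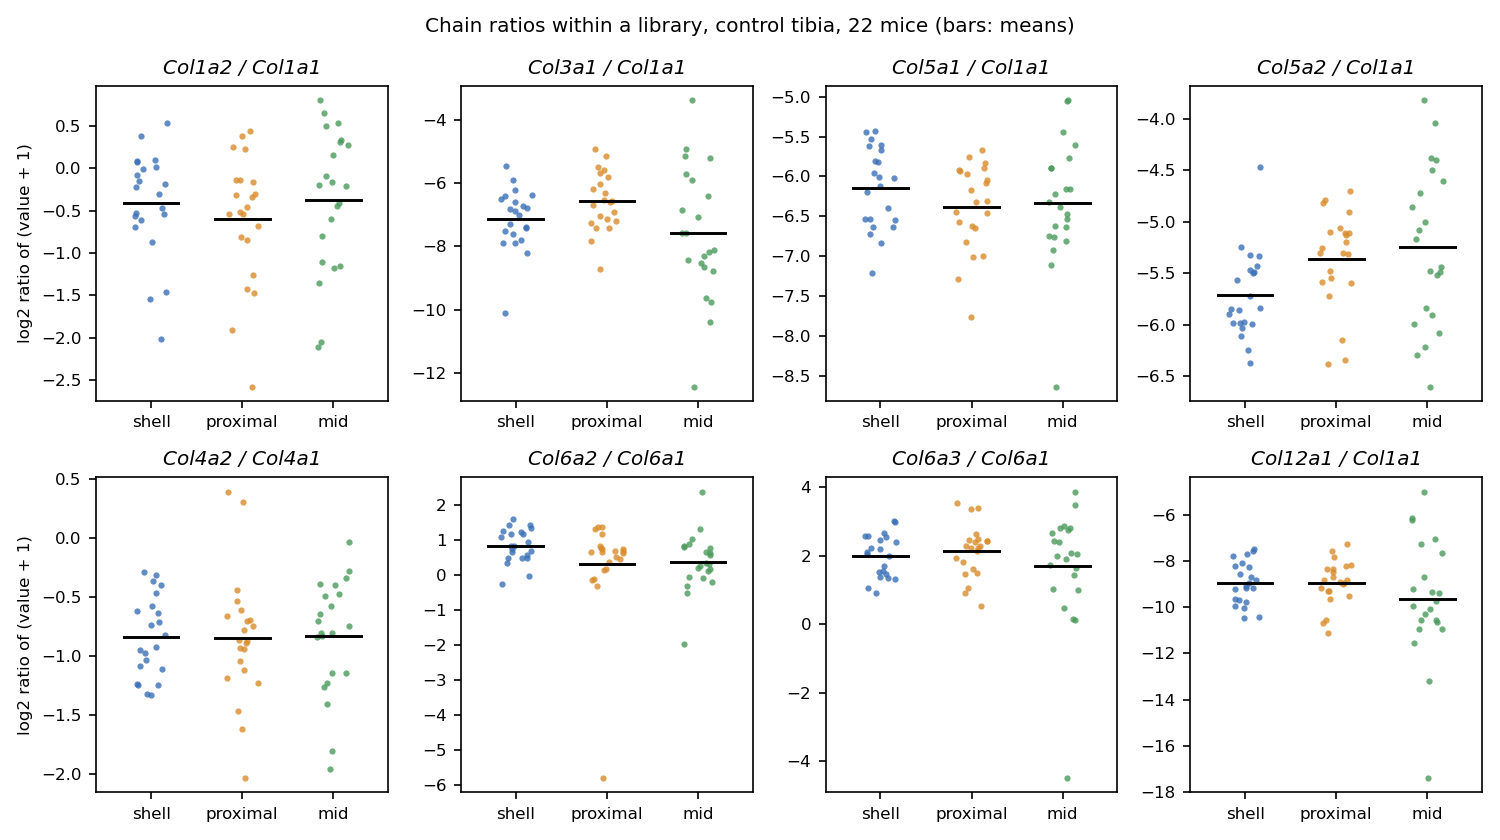
Log2 ratio of 2 collagen chains within a library (value + 1) in the control tibia, 1 point per mouse and bars at the means of 22 mice. The mean of Col4a2 to Col4a1 lies between -0.85 and -0.83 in all 3 segments, while that of Col3a1 to Col1a1 is -7.13 in the shell and -6.57 in proximal diaphysis.

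The second comparison set the loaded tibia against the control tibia of the same mouse. In the average over segments, 0 of the 30 members passed at any of the 5 times by limma or by edgeR, where 0.0153% of all genes passed at 1 h, 0% at 3 h, 0.00767% at 24 h, 0.0384% at 5d and 0.115% at 7d. At an unadjusted p under 0.05 by limma, 1 member was lower at 1 h, 3 were higher at 3 h, 0 at 24 h, 10 were lower and 1 higher at 5d, and 8 were lower and 1 higher at 7d. Among all genes the shares lower and higher by that measure were 2.8% and 0.921% at 1 h, 1.64% and 6.88% at 3 h, and 2.03% and 1.18% at 24 h. They were 3.48% and 2.42% at 5d and 3.54% and 8.68% at 7d. By edgeR 8 members were lower and 7 higher at 5d, and 4 lower and 2 higher at 7d, where 3.73% and 10.9% of all genes were below that p in either direction. Here edgeR was run on the summed reads of the 3 segments, whereas limma used the mean of 3 log2 differences. The 2 sets of counts thus do not measure the same quantity. The median of the members was -0.22 at 5d and -0.31 at 7d, and that of all genes was 0.02 and 0.12.

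At 7d the smallest p belonged to Col5a2. Its average difference was -2.17, -1.01, 0.10 and -0.92 in mice 1 to 4, a mean of -1.0 ± 0.24 (adjusted p = 0.0636 by limma). That of Col1a1 was -1.91, -1.31, -0.31 and -1.21, a mean of -1.19 ± 0.36 (adjusted p = 0.149). Col1a1 was lower in the loaded tibia of 4 of 4 mice and Col5a2 of 3 of 4, and mouse 3 moved least in both. Col15a1 was at -1.83, -0.74, -0.13 and -1.12, a mean of -0.95 ± 0.30 (adjusted p = 0.16). Mouse 1 was the furthest below 0 in each of these genes. Collagens took 0.857% of the reads in its loaded mid-diaphysis library and 19.6% in the control. In the other loaded mid-diaphysis libraries of 7d they took 15.2% to 27.2%. That library was not among the 4 or the 7 left out. Without the 4 libraries Col5a2 passed (adjusted p = 0.0449 by limma), and without mouse 3 at 7d Col5a2 and Col15a1 passed. None of the 4 libraries is of 7d, so the differences at 7d stayed the same in that fit. What changed was the estimate of spread, which the times share. Mouse 3 was the only mouse with Col5a2 above 0.

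At 5d the smallest p belonged to Col11a1, a fibrillar chain also made in cartilage, at -1.76, -0.02, 0.14, -3.35 and -1.64 (mean -1.33 ± 0.36, adjusted p = 0.256 by limma). Col5a2 was at -0.83, -0.23, -0.30, -0.88 and -1.26 (mean -0.70 ± 0.21, adjusted p = 0.415). Col22a1 was at -0.95, -0.14, -0.52, -1.84 and -2.21 (mean -1.13 ± 0.35, adjusted p = 0.417). All 5 mice were below 0 in the last 2 genes, and mice 4 and 5, whose loaded mid-diaphysis libraries stood apart, were the furthest below 0 in both. Without the 4 libraries that held high Msln the means were -0.96 for Col11a1, -0.60 for Col5a2 and -0.63 for Col22a1 (adjusted p = 1 for each by limma). Of the 10 fibrillar members, 7 had an unadjusted p under 0.05 at 5d and 6 at 7d, all lower, where 3.48% and 3.54% of all genes were lower by that measure.

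The members with the smallest p after 1 bout of loading follow. At 3 h Col25a1, a transmembrane collagen of neurons, was at 0.91, 1.62, 1.86 and 1.19, a mean of 1.39 ± 0.41 (adjusted p = 0.393 by limma), Col8a1 at 0.02, 0.49, 0.79 and 0.48, and Col11a1 at 0.44, 0.65, 0.69 and 1.72. These 3 were above 0 in all 4 mice. The control proximal library of mouse 3 at 3 h, with reads in 7915 genes, is 1 of those that stood apart. In the control of that mouse Col25a1 differed by -4.29 for proximal minus mid and by 3.12 for shell minus proximal. A mean of Col25a1 without that library is not given here. At 1 h Col16a1 was at -0.09, 0.22, -0.38, -1.52 and -1.92, a mean of -0.74 ± 0.27 (adjusted p = 0.999), followed by Col6a5 at -0.96 ± 0.50 and Col6a3 at -0.59 ± 0.33. At 24 h Col8a2 was at -1.53, -0.84, -1.27 and -0.06 (mean -0.93 ± 0.46), followed by Col23a1 at -1.09 ± 0.55 and Col4a4 at -0.83 ± 0.43, the last 3 all with adjusted p = 1. The 1 h group holds mouse 4 and mouse 5 well below the other 3 in Col16a1.

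**Figure D4:**
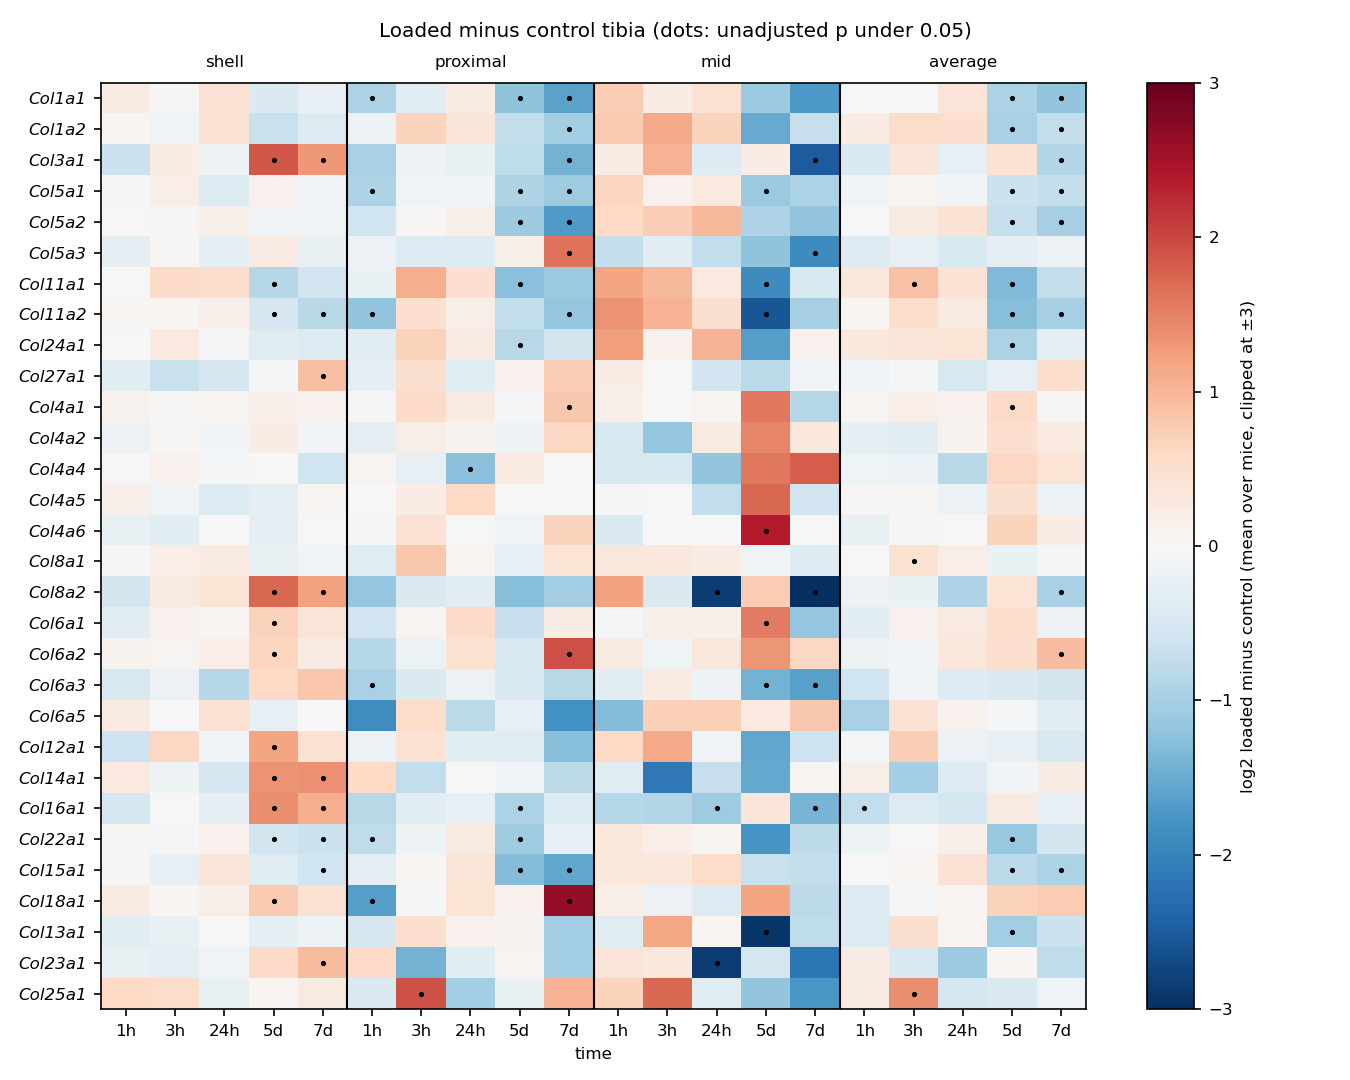
Mean log2 difference, loaded minus control, for the 30 tested members (rows) at 5 times in each segment and averaged over segments (columns), with colours limited to ±3 and dots at an unadjusted p under 0.05. The shell at 5d has 8 dotted members above 0 and 3 below 0, whereas proximal diaphysis at 5d has 8 below 0 and 0 above.

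By segment, 0 of the 30 members passed in any of the 15 comparisons by limma or by edgeR. The share of all genes that passed was 0.00767% in the shell at 5d, in the shell at 7d and in proximal diaphysis at 1 h, and 0% in the other 12. Early after loading, 0 members of the shell had an unadjusted p under 0.05 by limma, where the shares of all genes lower and higher were 1.47% and 0.99% at 1 h, 2.66% and 1.48% at 3 h, and 1.64% and 0.614% at 24 h. In proximal diaphysis 6 were lower at 1 h (2.79% lower and 2.01% higher of all genes), 1 higher at 3 h (0.852% and 9.26%) and 1 lower at 24 h (1.18% and 0.399%). At 1 h collagens took 2.81% of the reads in the loaded proximal library of mouse 5 and 18.5% in its control. In the other loaded proximal libraries of 1 h they took 12.1% to 21.9%. The library of mouse 5 was not among those left out. In mid-diaphysis there were 0 at 1 h (2.39% and 0.775%), 0 at 3 h (2.33% and 0.622%) and 3 lower at 24 h (1.17% and 0.737%). The counts at 3 h include mouse 2, whose cartilage genes go against its segment labels.

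In the shell at 5d, 8 members were higher and 3 lower at an unadjusted p under 0.05 by limma, where 1.34% and 0.952% of all genes were, and edgeR gave the same 2 counts (2.19% of all genes in either direction). In the shell at 7d, 6 were higher and 3 lower (2.78% and 4.70% of all genes), and edgeR gave 5 and 3 (5.31%). In proximal diaphysis, 8 were lower and 0 higher at 5d (2.04% and 0.714%) and 7 lower and 4 higher at 7d (2.96% and 13.9%), where edgeR gave 6 and 0, then 8 and 2 (2.05% and 9.78% in either direction). In mid-diaphysis, 5 were lower and 2 higher at 5d (4.02% and 4.39%) and 5 lower and 0 higher at 7d (2.91% and 3.98%), where edgeR gave 1 and 1, then 4 and 0 (4.17% and 5.05%).

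The members described next by segment were picked after their values were seen. Col3a1 in the shell at 5d was at 1556, 2078, 2755, 682 and 702.5 in the loaded tibia and at 472, 876, 58.1, 450 and 614 in the control of mice 1 to 5, a difference of 1.86 ± 0.51 (adjusted p = 0.591 by limma). Col16a1 was at 1706, 2840, 1340, 512 and 692 loaded and 700, 773, 161, 460 and 450 control, a difference of 1.397 ± 0.31 (unadjusted p = 0.000127, adjusted p = 0.413). In both genes the loaded tibia was the higher in 5 of 5 mice, while loaded and control values overlapped between mice, and mouse 3 had by far the lowest control values and mice 4 and 5 the lowest loaded ones. Col8a2 was at 102, 176, 66.9, 28.2 and 37.1 loaded and 27.6, 30.0, 4.37, 19.7 and 35.0 control, 1.72 ± 0.47. Col12a1 was at 242, 212, 1491, 268 and 529 loaded and 177, 209, 76.2, 305 and 201 control, 1.19 ± 0.40, with mouse 4 the one mouse in which the loaded tibia was lower. Without mouse 3 the difference was 0.94 for Col3a1, 0.98 for Col16a1, 1.24 for Col8a2 and 0.42 for Col12a1. Col1a1 in the same libraries was at 72070, 63867, 35815, 33558 and 40185 loaded and 73829, 65466, 64775, 58735 and 55668 control (-0.44 ± 0.41), lower in the loaded tibia of 5 of 5 mice.

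At 7d the shell values were similar for the first 2 of these genes. Col3a1 was at 1200, 2088, 12528 and 3460 loaded and 1100, 1555, 1717 and 990 control (1.31 ± 0.57, adjusted p = 0.628 by limma), and Col16a1 at 200, 308, 1290 and 477 loaded and 172, 230, 268 and 173 control (1.09 ± 0.34, adjusted p = 0.373). The loaded tibia was the higher in 4 of 4 mice in both, by little in mice 1 and 2 and by most in mouse 3, without which the differences were 0.79 for Col3a1 and 0.70 for Col16a1. Col8a2 was at 19.1, 13.99, 210 and 59.4 loaded and 6.95, 27.9, 47.9 and 11.4 control (1.20 ± 0.52), lower in the loaded tibia of mouse 2. Col11a2, the α2 chain of type XI collagen, was at 304, 326, 128.8 and 241 loaded and 420, 542, 282 and 472 control, the smallest p of the shell at 7d (-0.82 ± 0.20, adjusted p = 0.199).

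In mid-diaphysis at 7d the same genes had the opposite sign. Col3a1 was at 22.2, 54.5, 128 and 236 loaded and 237, 626, 566 and 476 control (-2.50 ± 0.86, adjusted p = 0.522 by limma), so that all 4 loaded values lay below all 4 control values, though the highest loaded and the lowest control value were almost equal. Col16a1 was at 12.9, 53.5, 31.5 and 37.1 loaded and 60.8, 47.4, 87.7 and 169 control (-1.396 ± 0.51). The first loaded value of each gene is that of mouse 1, whose library held 0.857% collagen reads. Col8a2 was at 0, 0, 2.10 and 20.2 loaded and 40.8, 22.1, 5.01 and 55.6 control, lower in 4 of 4 mice, with adjusted p = 0.499 in the fit of this segment and 0.0341 in a joint fit to all libraries. At mid 5d the joint fit also passed Col11a2, Col13a1 and Col4a6. Col4a6 was at 0, 0, 0, 89.1 and 42.98 loaded and 0 in all 5 controls, and the 2 libraries above 0 are those with high Msln.

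Col1a1 and Col5a2 in proximal diaphysis at the late times are given next, and 0 of the type I and type V chains passed there. Col1a1 at 5d was at 22515, 52143, 12583, 23271 and 26528 loaded and 91524, 44613, 29645, 60937 and 83540 control (-1.22 ± 0.45, adjusted p = 1 by limma). At 7d it was at 143387, 84226, 103829 and 84890 loaded and 212974, 861775, 200401 and 244087 control (-1.60 ± 0.50, adjusted p = 0.172), and without mouse 2 the mean was -1.01 (adjusted p = 0.981). At 7d no loaded value reached the lowest control value, whereas at 5d mouse 2 was higher in its loaded tibia. Col5a2 was at 503, 622, 698, 684 and 702 loaded and 1122, 1337, 747, 1267 and 3207 control at 5d (-1.09 ± 0.36), and at 3085, 1820, 2122 and 1737 loaded and 7119, 10351, 5090 and 6161 control at 7d (-1.70 ± 0.40, adjusted p = 0.123, and -1.43 without mouse 2). In Col5a2 the loaded and control values did not overlap at either time. The differences at 5d and 7d were -0.71 ± 0.43 and -1.02 ± 0.48 for Col1a2, -0.91 ± 0.35 and -1.07 ± 0.39 for Col5a1, and 0.18 ± 0.69 and 1.63 ± 0.77 for Col5a3. At 7d Col5a3 was higher in 2 of 4 loaded tibiae, by 6.91 in mouse 2, and without that mouse the mean was -0.13. The share of all genes with an unadjusted p under 0.05 and a lower loaded value was 2.04% at 5d and 2.96% at 7d. The control library of mouse 2 at 7d is 1 of those that stood apart, and controls of 7d were higher in Col1a1 than controls of 5d in all mice.

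Tests of whether the response differs gave 0 members as well. Between segments, 0 of 30 passed at any time by the limma F test, where 0.00767% of all genes passed at 7d and 0% at the other times. At an unadjusted p under 0.05 there were 6 members at 5d and 6 at 7d (4.78% and 8.47% of all genes), 1 at 24 h (0.66%) and 0 at 1 h and 3 h (2.79% and 1.53%). At 7d the smallest were those of Col8a2 and Col5a3 (adjusted p = 0.352), Col16a1 (0.365) and Col3a1 (0.369), and at 5d that of Col16a1 (0.804). Between times 0 passed, where 0.046% of all genes did, and 9 had an unadjusted p under 0.05 (6.17% of all genes), with Col5a2 first (adjusted p = 0.169). From 24 h after 1 bout to 24 h after 7 daily bouts the average difference of Col5a2 moved by -1.44 ± 0.34 (adjusted p = 0.164 by limma). The opposite signs in shell and mid-diaphysis are thus values of these mice that did not pass a test of the difference.

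**Figure D5:**
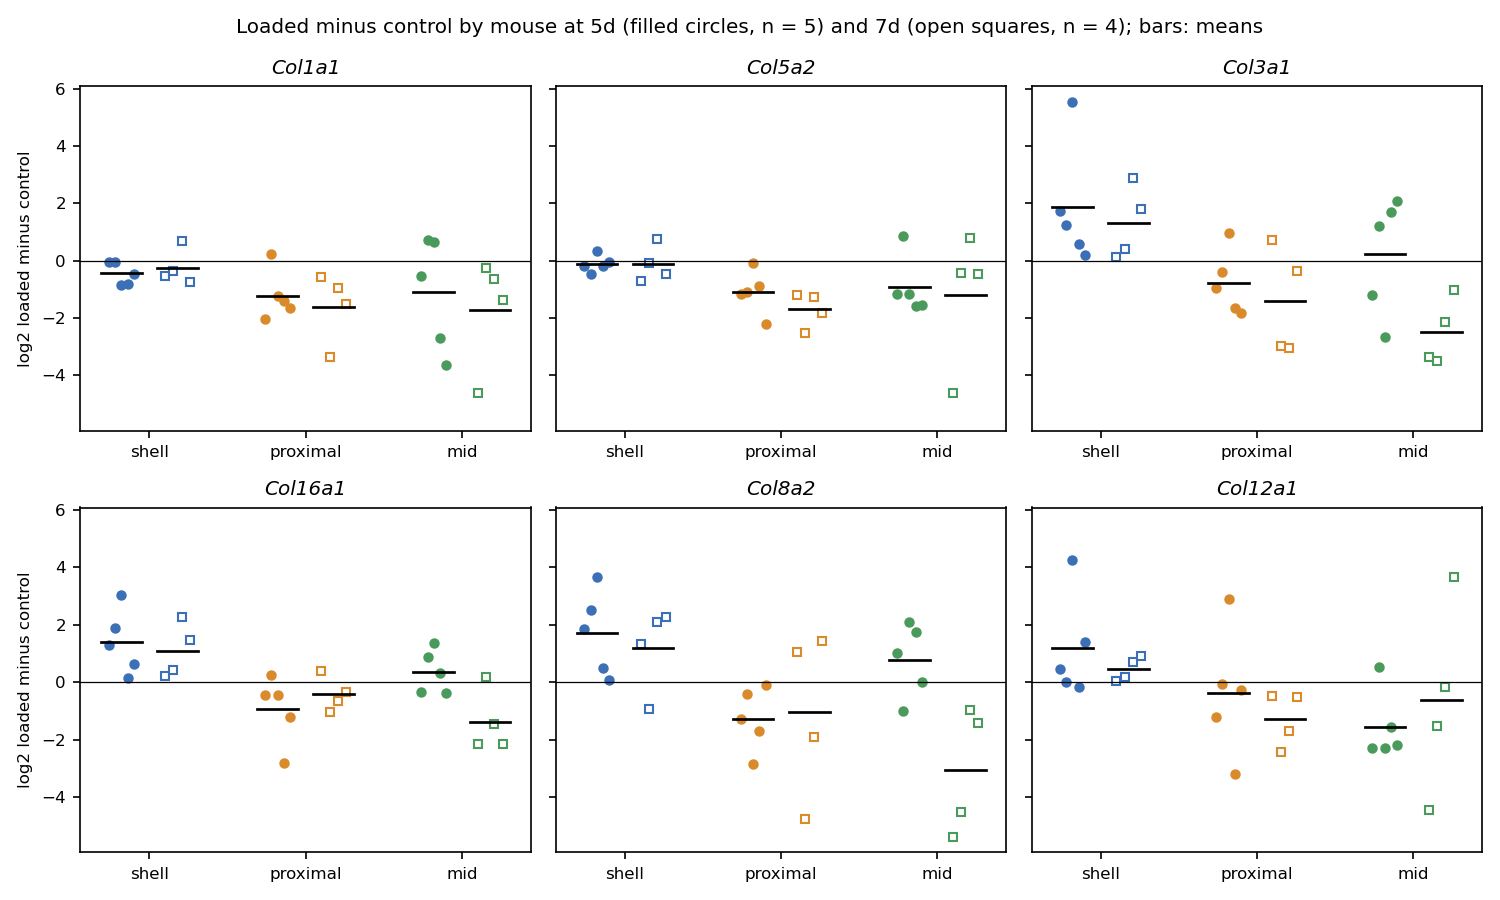
Log2 difference, loaded minus control, of 6 collagen genes by mouse and segment at 5d (filled circles, n = 5) and 7d (open squares, n = 4), with bars at the means. Col3a1 and Col16a1 lie above 0 in all 9 mice in the shell, and Col5a2 lies below 0 in all 9 in proximal diaphysis.

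Other gene lists are set beside these values. In the average at 5d and 7d, 6 of 6 skeletal muscle genes had an unadjusted p under 0.05 and were lower in the loaded tibia, with medians of -2.15 and -2.38, where 3.48% and 3.54% of all genes were, and 0 passed by limma. For the osteoblast list the medians were -0.61 and -0.58, with 4 and 1 of 6 genes below that p. The summed level of the 9 periosteum, tendon and fibroblast genes in the shell was 800 to 2641 loaded and 244 to 928 control at 5d (medians 1572 and 547), and 595 to 3876 loaded and 492 to 967 control at 7d (medians 1040 and 622). In proximal diaphysis it was 380 to 725 loaded and 544 to 2162 control at 5d and 386 to 879 loaded and 551 to 2651 control at 7d, and in mid-diaphysis at 7d 31.5 to 287 loaded and 310 to 601 control. Its loaded median lies on the same side of the control median as the mean difference of Col3a1 in these 5 groups, and the part of these cells in the collagen values was not tested. Mid-diaphysis at 5d and the groups after 1 bout are not given here, so the match covers only the groups shown.

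Genes that modify and process collagen had mostly negative differences in the average at 7d, where 39.5% of all genes did. Of the 17 hydroxylation and folding genes 17 were negative and 0 passed by limma, with 5 at 5d and 6 at 7d lower at an unadjusted p under 0.05, where 3.48% and 3.54% of all genes were. Of the 13 processing and crosslinking genes 10 were negative at 7d, 0 passed, and the counts at that p were likewise 5 and 6. The closest were P4ha2 at -1.22 ± 0.27 (adjusted p = 0.0573) and Pcolce, which enhances removal of the C-propeptide, at -0.80 ± 0.19 (adjusted p = 0.0597), both at 7d. Loxl2 was at -1.06 ± 0.25 at 5d and -1.01 ± 0.28 at 7d (adjusted p = 0.144 and 0.12). Serpinh1 was at -0.58 ± 0.20 and -0.69 ± 0.23. From 24 h to 7d the difference of P4ha2 fell by 2.12 (adjusted p = 0.0322 by limma), in a comparison in which 0.0384% of all genes passed.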

How the data were processed

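RNA of pulverised cortical bone was extracted and sequenced as 3′ mRNA libraries by the authors, per the labels' protocols. The submitters' processing notes name FastQC, STAR, DESeq2 and the build mm10. Versions, the counting tool and the annotation are not given in the sources used here. What the authors deposited is 1 normalised count, taken here as a signal, for each gene in each library. Whole reads were recovered in 100% of values within a tolerance of 0.02 of a read. 27 symbols that appear as dates were left out, and 4897 genes were at 0 throughout. The authors' header numbers each animal, which ties 6 libraries to a mouse. The residuals of the 2 limbs of a mouse had a median correlation of 0.172 in the shell, 0.048 in proximal diaphysis and -0.004 in mid-diaphysis. 0 pairs of libraries were identical.

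Values were taken to log2 after adding 1. Genes with at least 10 in at least 4 libraries were tested with limma 3.58.1 (R 4.3.3) on differences within a mouse, with a variance trend, two-sided, and p adjusted by Benjamini-Hochberg over all 13031 genes. The F test between segments had the mouse as a block and weights per segment. Chain ratios were tested by permutation of signs in Python 3.11.15 with numpy 2.4.6, and figures drawn with matplotlib 3.10.9. edgeR 4.0.16 (quasi-likelihood, on recovered reads) was an alternative, beside pseudocounts of 0.5 and 5, no filter, a filter at a mean of 50, upper-quartile scaling, no pairing, 1 joint fit and each mouse left out. For the average over segments edgeR took the summed reads of the 3 segments, not a mean of log2 differences. The omission of 4 or 7 libraries was added after seeing the data. The fits were tested on simulated data.

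Genes were named by a rule: up to 4 members per class and segment comparison by smallest p, the highest member of each class, up to 3 members per loading average by smallest p and up to 4 per pathway list. Where values guided the choice of a gene, the text says so. The members, lists and tests were chosen with earlier results of these data known. Positions are from GENCODE on mm10 and promoters from RefSeq on GRCm38.p6.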

Additional observations from a re-analysis of the deposited data

Results flagged for a closer look

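Among 30 loading results of named members, 1 mouse lay far from the others of its group. A wider search compared each pair of segments at each of the 5 times in every member of these results. It also compared the averages over segments between each pair of times. In 7 of these many pairs the responses had opposite signs in all mice, and how often chance gives such pairs was not worked out. Chance flags about 1 in 20 groups for a single far value. The log2 difference of Col3a1 in the shell at 5d was 5.54 in mouse 3 and 0.19 to 1.72 in the other 4 mice, and the control library of that mouse held Col3a1 at 58.1, the lowest of the 5.

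In the other 7 cases every mouse of 1 group moved up and every mouse of the other down, and the difference itself was tested on its own in 1 of the 7. At 5d Col8a2 averaged 1.72 in the shell and -1.27 in proximal diaphysis, a difference of 2.99. At 1 h Col1a1 averaged 0.25 and -0.93 in the same segments, a difference of 1.18, and mouse 5 was at -3.34 in proximal diaphysis, without which that mean was -0.32. At 7d Col3a1 averaged 1.31 in the shell and -2.50 in mid-diaphysis, a difference of 3.81, and Col12a1 0.46 in the shell and -1.29 in proximal diaphysis, a difference of 1.75. In averages over segments, Col25a1 was at 1.39 at 3 h and -0.53 at 24 h (difference 1.93), Col11a1 at 0.88 at 3 h and -0.72 at 7d (difference 1.59) and Col1a1 at 0.38 at 24 h and -1.19 at 7d (difference 1.56). The last was the one tested, with a change of -1.56 ± 0.50 from 24 h to 7d and adjusted p = 0.372 by limma, and the other 6 were not tested on their own. The F tests over the 3 segments or the 5 times did not pass for these genes. For Col25a1 the 3 h mean includes mouse 3, whose control proximal library stood apart.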

How the results depend on the processing

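Over 93 named results and 2948 alternatives, 2821 kept direction and side of the threshold, 53 lost the call, 54 gained one and 20 reversed. The numbers that pair libraries are mice, so the pairing is part of the design. Without the replicate block the calls between segments fell from 15 to 9, with 1 in shell against proximal diaphysis and 2 in proximal against mid-diaphysis. A joint fit with replicate block gave 0 and 8 there, and 4 in loading by segment where separate fits gave 0. In proximal against mid-diaphysis no filter on low values gave 1, edgeR 2, and leaving out the 4 or the 7 libraries that stood apart 2 each, in place of 4. Leaving out 7 gave 8 in shell against proximal diaphysis, in place of 5, and leaving out 4 gave 1 in the loading averages, in place of 0. Leaving out each mouse in turn gave 6 to 9 calls for shell against mid-diaphysis, 4 to 8 for shell against proximal diaphysis, 2 to 6 for proximal against mid-diaphysis and 13 to 18 in all. It gave 0 to 1 for loading by segment (Col5a2 in proximal diaphysis without mouse 5 at 1 h, Col18a1 there without mouse 3 at 7d), 0 to 2 for loading averages, 0 to 1 for times, 0 for segments in the response and 0 to 2 for chain ratios. The causes were not tested.

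The 20 reversed values were near 0 and not called. Col22a1 between shell and mid-diaphysis was at -0.075 in edgeR, -0.078 without 4 and -0.094 without 7 libraries, and ran from -0.15 to 0.16 with each mouse left out. Col6a2 between shell and proximal diaphysis was at -0.026 without 7 libraries. Between proximal and mid-diaphysis, Col25a1 ran from -0.075 to 0.45 and Col14a1 from -0.18 to 0.14 with each mouse left out, and Col14a1 was at 0.046 with a pseudocount of 0.5, 0.0090 with upper-quartile scaling and 0.045 without 4 libraries. Depth limits the low members most: Col4a4, Col4a5 and Col4a6 had reads in 33, 28 and 16 libraries.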
